A study of Danio rerio with 7 samples.

Results

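Most of the genes described here encode the contractile apparatus of muscle and the proteins that work beside it. They are troponins, myosin heavy and light chains, myosin binding protein C, Z-disc proteins, skeletal actin, desmin, caveolin 3, calcium-handling proteins and creatine kinases. All genes were chosen by symbol, from its opening letters or, for 5 genes, the whole symbol. The rule found 76 of the 14612 genes in a deposited gene table. Of these, 52 had the start nearest to at least 1 differential ATAC-seq peak, and together they held 189 of the 44025 differential peaks. Genes set down as outside skeletal muscle, smooth muscle and non-muscle myosins among them, held 20 of the 189 peaks, at 7 genes. Cardiac genes such as *myl7* were not set down in this way. The rule also covers titin and telethonin by the opening letters ttn and tcap, which matched no symbol here, and the letters neb matched only *nebl*.

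The peaks compare 2 cell populations sorted by flow cytometry from zebrafish embryos of the Tg(*kdrl*:GFP) line at 26 to 27 hours post fertilization, with 40000 to 50000 cells in each sort. The *kdrl* promoter drives GFP in endothelium. The kdrl:GFP+ fraction was the brighter part of the GFP-expressing cells, and the kdrl:GFP- fraction was the cells without GFP, a mixture of the embryo's other tissues. Both fractions carry the same transgene and no other treatment or allele is given, and the labels list 3 libraries of each with 1 control of genomic DNA. ATAC-seq lets a transposase cut DNA that nucleosomes leave uncovered, so a peak marks a stretch of accessible chromatin.

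In a sarcomere, myosin heads on the thick filament pull on actin in the thin filament. Calcium released from the sarcoplasmic reticulum binds troponin C, and the troponin complex then frees actin for myosin. Light chains stabilise and regulate the myosin heads, Z-disc proteins anchor the thin filaments, parvalbumin buffers calcium and creatine kinase restores ATP. Fast, slow and cardiac muscle use different paralogs of most of these proteins, and in zebrafish many have been duplicated further.

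Each peak has 1 value for each population, the log2 of the authors' mean normalized reads over the libraries, here called its concentration. The difference of a peak is the kdrl:GFP+ concentration minus the kdrl:GFP- concentration, so that a negative difference means less accessible chromatin in kdrl:GFP+ cells. The libraries are pooled in these values, so no spread between replicates and no test can be given, and every listed peak had already passed the authors' p-value threshold of 0.05. In sorted populations, fewer cells with a site open and a less open site in each cell cannot be told apart. A peak is linked to a gene only because that gene's start is the nearest one, and whether the peak acts on the gene was not tested.

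Over all 189 peaks, chromatin near contractile genes was split between the populations in nearly the same proportion as the whole table. Of these peaks, 106 (56.1%, 95% Wilson interval 49.0 to 63.0) had a lower concentration in kdrl:GFP+ cells and 83 (43.9%) a higher one, beside 55.3% lower and 44.7% higher among all differential peaks. The intervals cover counting error only, and peaks near 1 gene are not independent. The median difference was -1.17 (95% interval from the order of the values -1.45 to 1.02), beside -1.19 over all peaks. Taken as 1 median for each gene it was -0.41. Among the 48 peaks within 10 kb of a start, 23 lower and 25 higher, the median was 1.06. Over all differential peaks at that distance it was -0.94. No peak of the set differs by less than 0.88, so the median jumps when the split passes an even one. A log2 difference of 3 is 8-fold where neither value is at the lowest concentration listed for its population. A difference below -3 was found at 20 peaks (10.6%, beside 13.3% of all peaks). A difference above 3 was found at 30 peaks (15.9%, beside 17.8%). Without peaks at a lowest listed concentration, 15 of the lower and 25 of the higher ones remained. The share of genes that had a peak at all was 68.4%, beside 61.8% of the whole gene table.

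The peaks near endothelial and neural markers were more one-sided. All marker lists were written with earlier results of these data known, so their shares are no independent check. Of 117 peaks nearest to the endothelial markers, 88.0% were higher in kdrl:GFP+ cells, with a median difference of 3.14. The gene *kdrl*, whose promoter drives the GFP used for sorting, was 1 of the 14 endothelial markers with peaks. Of its 10 peaks, 9 were higher. Other endothelial markers were split, as *cdh5* (4 lower, 5 higher) and *ldb2a* (4 lower, 4 higher). Of 111 peaks nearest to neural markers 91.9% were lower, with a median of -2.51. Erythroid markers had 8 peaks, of which 5 were higher, but 7 of the 8 were nearest to *klf17* alone (3 lower, 4 higher). Cardiac factors had 17 peaks, of which 10 were higher. Other muscle genes, including the myogenic factors, had 65 peaks, with 26 lower, 39 higher and a median difference of 1.32. Of these, 16 were nearest to *prdm1a* (3 lower, 13 higher) and 7 to *mef2ca* (1 lower, 6 higher). The single peaks of *myog*, *myf5* and *myf6*, genes of myogenic transcription factors, were at -5.82, -2.26 and -2.29. The myogenic factor gene *myod1* had 1 lower and 1 higher peak. All 4 peaks of *ryr1b*, a calcium release channel of muscle, were higher, and 8 of 9 peaks of *actn3b*, a Z-disc alpha-actinin, were lower. The part of the cell mixture in the values of contractile genes was not tested.

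The split was made up of genes that pointed different ways and from genes with peaks of both kinds. All peaks were lower in kdrl:GFP+ cells at 13 genes and higher at 14, and 25 genes had both. Those with peaks in 1 direction only included the 21 genes with a single peak, which could not have had both. Of the 31 genes with at least 2 peaks, 25 (80.6%) had both directions, beside 66.0% of the 6397 such genes in the whole table. The number of peaks was uneven: 21 genes had 1, the median was 2 (3 over all genes with a peak), and 6 genes with at least 10 peaks held 72 of the 189. The most, 15, were nearest to *myl1*.

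**Figure D1:**
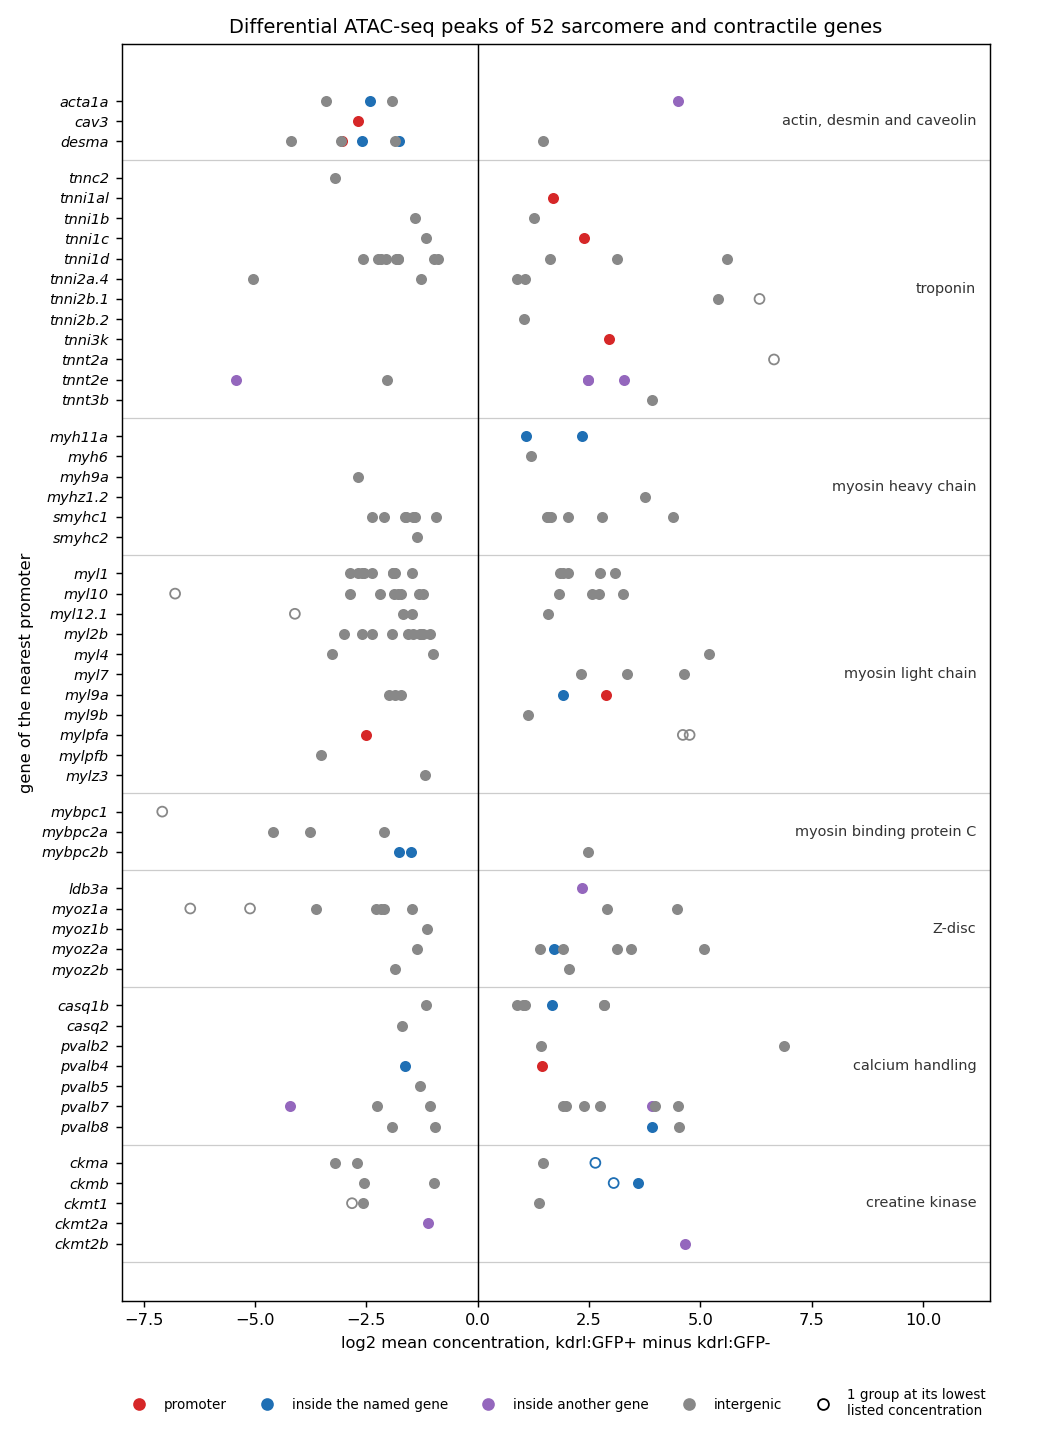
Each point is 1 differential peak, placed by its difference in log2 mean concentration (kdrl:GFP+ minus kdrl:GFP-) in the line of the gene with the nearest promoter, with genes grouped by role. Colour gives the authors' annotation and open circles are peaks where 1 population is at the lowest concentration listed for it. Peaks of *myl2b* all lie left of 0 and those of *myl7* all lie right of it, whereas *myl1*, *myl10*, *smyhc1* and *tnni1d* have points on both sides.

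The counts differed between roles. Lower concentrations in kdrl:GFP+ cells made up 6 of 7 peaks at myosin binding protein C genes, 10 of 12 at the genes of actin, desmin and caveolin and 39 of 58 (67.2%) at myosin light chains. Higher concentrations made up 18 of 27 at calcium-handling genes. Troponins (16 of 33 lower), myosin heavy chains (9 of 19), Z-disc genes (10 of 20) and creatine kinases (7 of 13) were close to an even split. These counts rest on 3 to 12 genes with peaks in each role, and peaks of 1 gene weigh heavily in several of them.

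**Figure D2:**
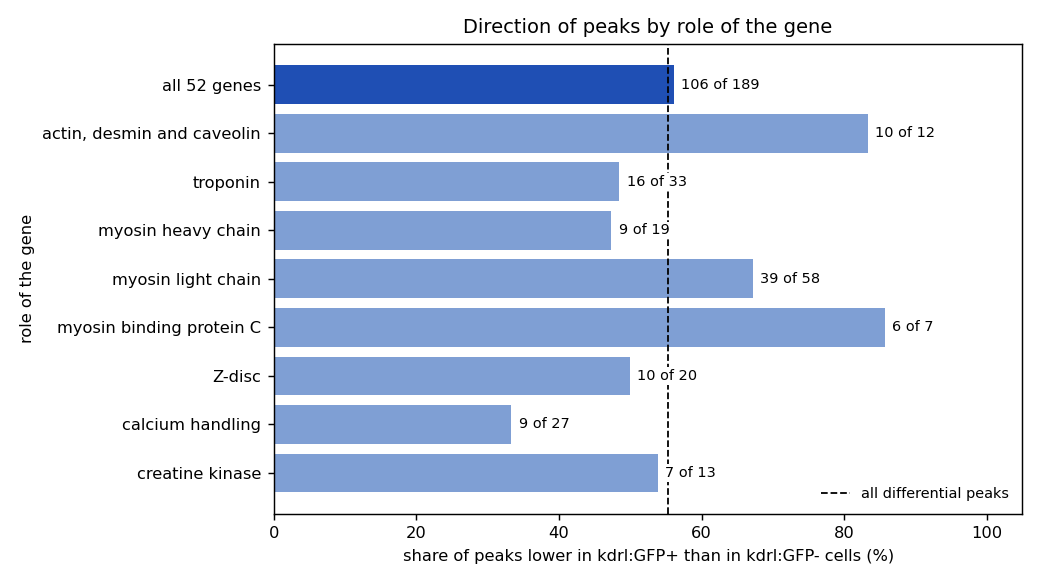
Bars give the share of peaks, in percent, that were lower in kdrl:GFP+ than in kdrl:GFP- cells, for all 52 genes with a peak and for each role, with counts beside the bars. The dashed line is the 55.3% of all differential peaks; myosin binding protein C (6 of 7) and actin, desmin and caveolin (10 of 12) lie farthest above it and calcium handling (9 of 27) farthest below.

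Peaks at the genes' own start sites were few. Of the 189 peaks, 8 (4.23%, beside 2.04% of all peaks) were annotated as promoter, and 11 had their centre within 1 kb of a start. Among the 11, 3 were lower in kdrl:GFP+ cells and 8 were higher, whereas 53.2% of all 1410 peaks at that distance were lower. The 3 lower ones belonged to skeletal muscle genes. Genes not set down as outside skeletal muscle were also among the 8 higher ones, as at *tnni1c*, *tnni1al*, *pvalb4* and *pvalb7*. At *desma*, the gene of the intermediate filament protein desmin, the start site peak (Zv9 chromosome 9, 7580510 to 7581118) had 2.94 in kdrl:GFP+ cells beside 5.99 in kdrl:GFP- cells, which differ by -3.04. At *cav3*, the gene of the muscle caveolin of the plasma membrane, the start site peak (chromosome 6, 41934358 to 41934848) had 3.19 and 5.87, a difference of -2.68. At *mylpfa*, a fast skeletal regulatory light chain, a peak 0.519 kb upstream (chromosome 3, 32955587 to 32956475) had 4.0 and 6.51, a difference of -2.51.

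The higher start site peaks were of more mixed genes. The strongest was at *myl9a*, a regulatory light chain of smooth muscle and non-muscle myosin, with 10.00 in kdrl:GFP+ cells beside 7.13 in kdrl:GFP- cells, 0.089 kb upstream (chromosome 23, 43183668 to 43184678). The 2 peaks of *myh11a*, the smooth muscle myosin heavy chain, lay 0.103 and 0.778 kb into the gene and differed by 1.09 and 2.34. The symbol *tnni3k* belongs to the troponin group by its letters alone, since it names a kinase that binds cardiac troponin I, and its promoter peak had 7.67 and 4.73, a difference of 2.95. Of troponin I genes proper, the promoter peak of *tnni1c* had 7.13 and 4.73 (2.40) and that of *tnni1al* had 6.54 and 4.86 (1.68). The promoter peak of *pvalb4*, a parvalbumin, had 6.16 and 4.73 (1.44). The largest difference at a start, 3.92, was at *pvalb7*, with 7.58 and 3.66. This peak (chromosome 22, 31813658 to 31814149) is annotated to an exon of *ncf4*, which encodes a subunit of the phagocyte NADPH oxidase, and it also overlaps an exon of *pvalb7*.

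**Figure D3:**
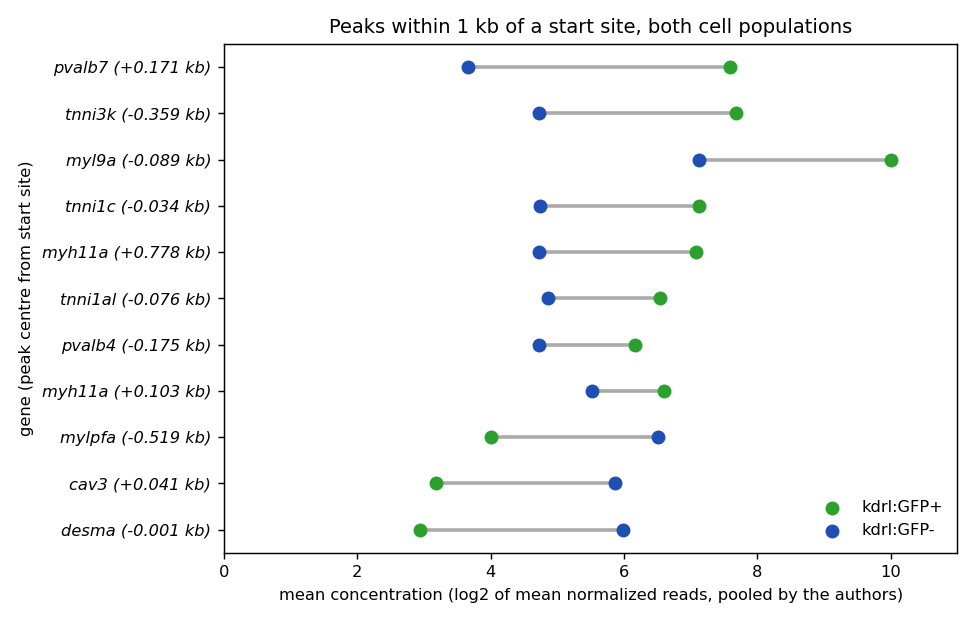
For the 11 peaks whose centre lies within 1 kb of a start site, green and blue points give the authors' mean concentration (log2 of mean normalized reads) in kdrl:GFP+ and kdrl:GFP- cells, with the distance from the start beside each gene. Blue lies to the right only at *mylpfa*, *cav3* and *desma*.

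At *desma* the lower concentrations extended beyond the start. Of its 7 peaks, 6 were lower in kdrl:GFP+ cells, among them 1 in an intron (3.34 against 5.95, a difference of -2.60) and 1 in the 3′ UTR (4.55 against 6.32, -1.77). The largest, 72.9 kb downstream of the start, had 4.22 and 8.41 (-4.19). The exception was a peak strong in both populations at 68.3 kb (9.25 and 7.79, 1.46). At *acta1a*, a skeletal alpha-actin, 3 of 4 peaks were lower, at the end of the gene (5.22 against 7.65, -2.43) and further downstream down to 1.47 against 4.87 (-3.40). Its remaining peak (7.53 against 3.02, 4.51) lies in an exon of the neighbouring *nup133*, which encodes a nuclear pore protein. The paralog *acta1b* had no differential peak nearest to its start.

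At the myosin binding protein C genes, whose products brace the thick filament, the 7 peaks had a median difference of -2.12. Of these, 3 were below -3. The single peak of *mybpc1*, the slow muscle form in mammals, lay 5.82 kb upstream (chromosome 4, 16866865 to 16867446). It was at the lowest listed concentration in kdrl:GFP+ cells, -0.36, and at 6.73 in kdrl:GFP- cells, a difference of -7.09, the most negative of the 189. At *mybpc2a*, a fast muscle form, all 3 peaks were lower and lay 77.0 to 92.2 kb downstream of the start, the strongest with 4.26 and 8.86 (-4.60). At *mybpc2b*, 2 peaks in the gene were lower (-1.49 and -1.76) and 1 upstream was higher (3.70 against 1.23, 2.47). The cardiac gene *mybpc3* had none. Differences that involve a lowest listed concentration, which 12 of the 189 peaks do, depend on that shared value and give no fold.

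Myosin light chains held the most peaks. At *myl2b*, a regulatory light chain, all 10 peaks were lower in kdrl:GFP+ cells. They lay 17.6 to 144 kb upstream, with 3.48 to 6.65 in kdrl:GFP+ cells, 5.04 to 9.24 in kdrl:GFP- cells and differences of -3.01 to -1.06. At *myl1*, the essential light chain of fast muscle, 10 of 15 were lower. The nearest, 2.71 kb upstream, had 4.18 and 6.86 (-2.68), and the next but one, at 20.1 kb, had 3.88 and 6.74 (-2.87), the most negative difference at this gene. Between them, at 14.4 kb, lay a peak with 6.96 and 5.10 (1.86). Its most positive difference (8.06 against 4.98, 3.08) lay 410 kb upstream, among 7 peaks that lay 314 to 460 kb upstream, of which 4 were lower. At *myl10*, 8 of 12 were lower, and 1 of them, 79.8 kb upstream, was at the lowest kdrl:GFP+ concentration beside 6.44 in kdrl:GFP- cells (-6.80). The single *mylpfb* peak had 1.79 and 5.30 (-3.52).

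Around *mylpfa* the flanks and the promoter pointed opposite ways. The promoter peak was lower in kdrl:GFP+ cells, as given above. A peak 4.90 kb upstream had 4.98 and one 7.89 kb downstream of the start had 4.83, each beside the lowest listed kdrl:GFP- concentration of 0.22, for differences of 4.76 and 4.61. A similar mixture was found at *myl4*, an essential light chain of the atrium in mammals. Its peak at 36.0 kb had 7.43 and 2.23 (5.20), and the one at 32.1 kb had 1.62 and 4.88 (-3.26).

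Light chains outside skeletal muscle also differed among themselves. At *myl7*, the regulatory light chain of the heart, all 3 peaks were higher in kdrl:GFP+ cells, with 7.34 against 2.71 at 16.5 kb (4.63), 7.98 against 4.63 at 57.8 kb (3.35) and 6.41 against 4.09 at 14.8 kb (2.32). The non-muscle *myl12.1* had 3 of 4 lower, with the largest at the lowest kdrl:GFP+ concentration beside 3.75 (-4.11). At *myl9a* the promoter and intron peaks were higher (2.87 and 1.92) and 3 distant ones were lower (-1.99 to -1.73). The single *myl9b* peak, of another smooth and non-muscle light chain, differed by 1.12, and *myl6* and *myl12.2* had none.

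Myosin heavy chains were represented mainly by *smyhc1*, a slow myosin heavy chain with 13 peaks. The 2 within 10 kb, both upstream, were lower in kdrl:GFP+ cells (4.47 against 6.09, -1.63, and 4.64 against 7.02, -2.38). The 11 that lay 36.8 to 289 kb downstream were 5 lower and 6 higher, up to 4.88 against 0.49 (4.40). That 0.49 is near the lowest listed kdrl:GFP- concentration, 0.22. Counting a peak upstream of *smyhc2* (2.82 against 4.17, -1.36), all 3 peaks within 10 kb of the *smyhc1*, *smyhc2* and *smyhc3* cluster were lower. In the fast myosin cluster of *myhz2*, *myhc4*, *myhz1.2* and *myhz1.1* on chromosome 5, both peaks were higher. One, nearest to *myhz1.2*, had 7.98 and 4.22 (3.76), and the other had *hspb15*, a small heat shock protein gene, as its nearest start. The cardiac *myh6* peak was higher (8.42 against 7.22) and the non-muscle *myh9a* peak lower (2.11 against 4.81, -2.70).

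Among the troponin genes the fast skeletal cluster of *tnni2b* and *tnnt3b* on chromosome 7 (Zv9, 40779808 to 40853089) had peaks of 1 direction. All 4 peaks in the cluster or within 10 kb of it were higher in kdrl:GFP+ cells. Near *tnni2b.1*, a fast troponin I, they had 6.55 beside the lowest kdrl:GFP- concentration (6.33) and 7.01 against 1.61 (5.40). Near *tnnt3b*, a fast troponin T, the peak had 7.95 and 4.04 (3.90), and near *tnni2b.2* it had 8.14 and 7.10 (1.03). The paralogous cluster of *tnni2a* and *tnnt3a* on chromosome 25 had 3 lower and 3 higher peaks, 2 of them nearest to *myod1*, a myogenic factor. Its largest difference, at *tnni2a.4*, was 0.65 against 5.70 (-5.05).

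Other troponin peaks also ran in both directions. The single peak of *tnnt2a*, the cardiac troponin T, had 6.87 in kdrl:GFP+ cells beside the lowest kdrl:GFP- concentration (6.65), 25.7 kb upstream (chromosome 23, 5760360 to 5760766). The single peak of *tnnc2*, the fast troponin C, had 2.53 and 5.74 (-3.21). The deposited exons of *tnni1d*, of the slow troponin I family, lie at 2 loci. Its 12 peaks all lie on chromosome 4, and 9 of them were lower. Its nearest peak was the opposite of the rest of that stretch: 1.37 kb upstream the concentrations were 7.36 and 1.77 (5.59), whereas the other 4 within 50 kb upstream were all lower, by up to 3.01 against 5.58 (-2.57). At *tnnt2e*, 4 of 5 peaks lie inside *cald1b*, a caldesmon gene, and of these 3 were higher (2.47, 2.48 and 3.28) and 1 was lower (0.23 against 5.66, -5.43). The 0.23 of that lower peak is near the lowest listed kdrl:GFP+ concentration, -0.36.

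The Z-disc genes were dominated by 2 myozenins, which bind alpha-actinin and calcineurin. At *myoz1a*, 7 of 9 peaks were lower in kdrl:GFP+ cells. Of these, 2 were at the lowest kdrl:GFP+ concentration, beside 6.10 at 17.9 kb downstream of the start (-6.46) and 4.75 at 213 kb upstream (-5.12). At *myoz2a*, 6 of 7 were higher. The strongest, at 38.1 kb (chromosome 7, 72522770 to 72524004), had 10.45 and 5.38 (5.07), and an intron peak had 6.68 and 4.95 (1.72). The Z-disc gene *ldb3a* had 1 peak (2.35), in an exon of *opn4a*, a photopigment gene, and *ldb3b* had none. The gene *nebl*, which stands here by its symbol and is not a gene of skeletal muscle, had none either.

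At the calcium-handling genes the most positive difference of the whole set was near *pvalb2*, a parvalbumin of fast muscle. The peak 3.73 kb upstream (chromosome 12, 18783285 to 18784268) had 9.85 in kdrl:GFP+ cells beside 2.97 in kdrl:GFP- cells, a difference of 6.87 with neither value at the lowest. A 2nd peak 6.84 kb upstream had 8.64 and 7.23 (1.41). The neighbouring *pvalb3* and *pvalb9*, of which *pvalb9* was set down as a parvalbumin outside skeletal muscle, had no peaks of their own. At *pvalb7*, 7 of 10 peaks were higher, up to 7.85 against 3.34 (4.51), and the exception of largest size, 1.98 against 6.19 (-4.21), lay in *ncf4* like the peak at the start. At *pvalb8*, which is known from sensory hair cells rather than muscle, the 2 higher peaks (4.52 and 3.93) lay downstream of the start and the 2 lower ones (-1.94 and -0.96) upstream. The other *pvalb4* peak, in an exon, was lower (6.15 against 7.78, -1.64).

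Upstream of *casq1b*, a calsequestrin that stores calcium in the sarcoplasmic reticulum, lay the peak with the highest concentration of the set in both populations. Between 13.6 and 23.2 kb from the start, 4 neighbouring peaks had concentrations of 9.45 to 10.95 in kdrl:GFP+ cells beside 6.61 to 10.06 in kdrl:GFP- cells, all higher in kdrl:GFP+ cells by 0.89 to 2.83. The broadest of them (chromosome 7, 76771876 to 76775068) ranked at percentile 99.9 of all peaks in kdrl:GFP+ cells and 98.9 in kdrl:GFP- cells, and its difference was 0.89. In all, 6 of 7 *casq1b* peaks were higher. Differential peaks were not listed for *atp2a1*, the calcium pump of fast muscle, or for *casq1a*.

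The muscle creatine kinase genes *ckma* and *ckmb* had exon peaks with more signal in kdrl:GFP+ cells, the direction of 68.4% of all exon peaks. At *ckmb* the concentrations were 5.38 against 1.79 (3.59) and 3.27 beside the lowest kdrl:GFP- concentration (3.05), and at *ckma* 2.86 beside that same lowest value (2.64). Peaks outside these genes included lower ones, at most 1.43 against 4.63 for *ckma* (-3.21) and 4.75 against 7.32 for *ckmb* (-2.56). The mitochondrial *ckmt1*, which is not a muscle form, had 2 of 3 lower, the larger at -2.82 with kdrl:GFP+ cells at their lowest concentration. The single *ckmt2b* peak (5.73 against 1.07, 4.65) and the single *ckmt2a* peak (-1.11) lie in introns of other genes, *rasgrf2b* and *pi4kaa*.

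The split also varied with position relative to genes. Of the 156 intergenic peaks 60.3% were lower in kdrl:GFP+ cells (57.1% of all intergenic peaks), whereas of 9 exon peaks 2 were lower (31.6% of all exon peaks) and of 14 intron peaks 5 (54.3% of all intron peaks). The 23 peaks that the authors annotated to the contractile gene itself, promoters included, were 9 lower and 14 higher. The 10 annotated to another gene, among them the *pvalb7* start peak that overlaps both genes, were 3 lower and 7 higher. No matching share over all peaks was taken for these 2 counts, so they are not read as particular to these genes. Among all peaks, 57.0% at promoters, 54.3% in introns and 31.6% in exons were lower. By distance from the start, 23 of 48 peaks within 10 kb were lower (47.9%, beside 51.3% of all such peaks) and 52.3% between 10 and 50 kb (52.4% of all). Of those 48, the 37 between 1 and 10 kb were 54.1% lower (50.9% of all). Between 50 and 100 kb 69.2% were lower (57.6% of all), and beyond 100 kb 59.5% (61.0% of all).

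**Figure D4:**
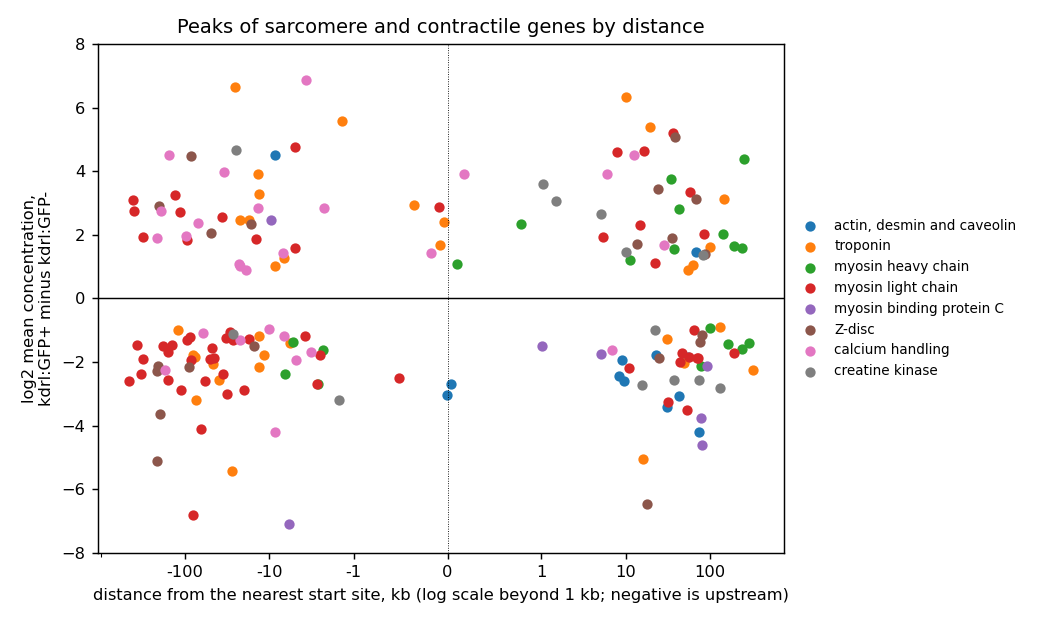
Each point is 1 of the 189 peaks, placed by its distance in kb from the nearest start site (log scale beyond 1 kb, upstream negative) and by its difference in log2 mean concentration (kdrl:GFP+ minus kdrl:GFP-), with colour for the role of the gene. Most peaks lie more than 10 kb from a start; the most positive point is the *pvalb2* peak (6.87) and the most negative the *mybpc1* peak (-7.09).

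Of the 76 genes, 68.4% had a differential peak, beside 61.8% of the whole gene table. The 24 genes with no differential peak nearest to their start came from every role except the creatine kinases. They included 8 of 20 troponins (*tnnc1a*, *tnnc1b*, *tnnt1*, *tnnt2d*, *tnnt3a* and *tnni2a.1* to *tnni2a.3*), 6 of 13 calcium-handling genes and 4 of 10 myosin heavy chains. The others were 2 of 7 Z-disc genes, 2 of 13 myosin light chains, 1 of 4 myosin binding protein C genes and 1 of 4 at actin, desmin and caveolin. Peaks past the threshold alone are in the table, so these genes may have accessible sites that did not differ enough to be listed. The link by nearest start also matters here. Listed peaks lay within 10 kb of exons of *acta1b*, *ldb3b*, *tnnt1* and *tnnt3a* but were nearer to the start of another gene. The genes with peaks that are not described above had 1 or 2 each, with differences between -1.86 (*myoz2b*) and 2.06 (also *myoz2b*).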

How the data were processed

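ATAC-seq was measured in sorted cells of zebrafish embryos. The authors trimmed reads with Trimmomatic 0.32, mapped them with BWA 0.7.12 to Zv9, called peaks and compared the groups with DiffBind by its edgeR method. HOMER annotated each peak and its nearest start. The deposited peak table gives log2 mean normalized reads per group, with libraries pooled; how they were scaled, and any shift of reads for the transposase, are not given in the sources used here. The labels give 3 libraries a group and the study's methods 2 kdrl:GFP+ and 4 kdrl:GFP-, after 2 outlying kdrl:GFP+ replicates were removed, so which libraries the means hold is not known. The table's fold and p-value columns hold the authors' comparison and were not used. Of the gene table the symbols and exon coordinates were used. Its 6 columns of values per sample match no sample of this series, and its fold changes and p-values are the authors' comparison; none were used. Its deposited log2 mean CPM was not used in the text either.

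Differences were taken between the deposited means, and peaks were counted by sign and past 3. Depth per library is unknown. Members and lists were chosen with earlier results of these data known. The genes named are, by role, each one with at least 3 peaks, a promoter peak or an absolute difference over 3, and the gene with the most peaks; for each, the peak of largest difference and any promoter peak are given. Genes set down as outside skeletal muscle are always named as such. Others, such as *myog*, were named after their values were seen. Coordinates are as in the table. No sequence is printed. The counting was tested on simulated data in Python (3.11.15), with tables read in pandas (2.3.3) on numpy (2.4.6), intervals from scipy (1.17.1) and plots from matplotlib (3.10.9). Alternatives were other links of peaks to genes, distances, thresholds and units of counting, and leaving out genes or peaks.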

Additional observations from a re-analysis of the deposited data

How the results depend on the processing

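The balance of directions changed when only peaks near a gene were counted. With peaks within 10 kb of an exon of a member in place of the nearest start, 49.4% of 83 peaks were lower in kdrl:GFP+ cells and the median difference was 1.03. As deposited, the 17 exons of *tnnc1a* spread from 3983138 to 5395605 on chromosome 23, so peaks along that long stretch enter this alternative. With only peaks within 10 kb of the nearest start, 47.9% of 48 were lower and the median was 1.06. Of these, the 11 within 1 kb were 3 lower and 8 higher. The 37 between 1 and 10 kb were 54.1% lower with a median of -1.19, so no steady change with distance was seen. The medians of 1.03 and 1.06 had the opposite sign to the -1.17 over all 189 peaks. No peak of the set differs by less than 0.88, so the median jumps when the split passes an even one. Under the other 6 alternatives the share lower stayed between 50.4% and 56.5%, and the median moved most with 1 value for each gene, to -0.41. At a threshold of 2 in place of 3, 52 peaks were past it on the higher side and 50 on the lower, and at 4 these were 16 and 10. The number of genes with a peak was 49, *tnnc1a* among them, in place of 52 when peaks within 10 kb of an exon were counted. No paired analysis was possible because the values are pooled over the libraries of a group. For the same reason no library could be left out here. By the study's methods 2 outlying kdrl:GFP+ replicates had been removed, and their values were not analysed here. A lowest listed concentration may be a shared floor value, and 12 of the 189 peaks hold one.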

Other observations

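Some differential peaks lie within 10 kb of an exon of a gene of the set but nearer to the start of another gene, and examples follow. The start of *ptprna*, a receptor-type phosphatase gene beside *desma*, held a promoter peak with 5.51 in kdrl:GFP+ cells beside 6.80 in kdrl:GFP- cells, a difference of -1.29. Beside the fast myosin cluster, the peak nearest to *hspb15* had 4.84 and 1.68, a difference of 3.16, and beside *myh11a* a peak at the end of *pglyrp2*, a peptidoglycan recognition protein gene, had 7.0 and 2.03, a difference of 4.96. In an intron of *myom1a*, a gene of the M-band protein myomesin, a peak near the non-muscle light chain gene *myl12.2* had 1.98 and 4.32, a difference of -2.34. By the current RefSeq symbol of its accession, 1 further peak belongs to a myosin light chain: the gene printed as zgc:66286 is now *myl13*, and its peak just upstream of its start had 5.06 and 6.44, a difference of -1.38.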
